A study of Homo sapiens with 27 samples.

Results

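The 6 genes HSPA5, HYOU1, HSPA8, DNAJB1, HSPH1 and HSP90AA1, all of protein folding, were read by their RNA 3′ ends in lung cancer cells treated with platinum drugs. Peaks were assigned to a gene when they overlapped its window on its strand, all 6 genes lying on the minus strand. The windows held 74 of the 233020 peaks obtained by merging the 27 deposited peak lists, and 21 of the 74 stood in all 27 lists. All 6 genes had at least 1 such peak. In the sources used here the windows are not paired with exons, introns or UTRs, so peaks are given by position in the human build hg19, which the positions fit although the submitters' processing notes name the mouse build mm9.

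The series counted 3′ ends of poly(A)+ RNA in 9 groups of 3 libraries from 3 lines that the labels give as non-small cell lung cancer. The H358 libraries were made from total cells after DMSO, the vehicle, or after cisplatin or oxaliplatin. Those of A549 were made from cytosol and, separately, from heavy polysomes, messenger RNA loaded with many ribosomes, each with DMSO and with cisplatin. RNA of A549R, which the series design sets as the cisplatin-resistant counterpart of A549, was cytosolic and likewise from DMSO and cisplatin cells. Both platinum compounds were given at 100 µM, no exposure time is stated in the sources used here, and all lines grew in the same medium with serum. How A549R was derived, and whether it is 1 clone, is not given in the sources used. Nor do the labels say that the 3 libraries of a group came from separate cultures, so p-values measure the spread between these libraries, which may be technical. H358 and the A549 lines differ in extract as well as in line and were not compared by a test.

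Molecular chaperones bind unfolded stretches of protein and release them in cycles driven by ATP. HSPA5 (BiP) is the Hsp70 of the endoplasmic reticulum (ER) and the main brake on the sensors of the unfolded protein response. HYOU1 is a large Hsp70-related chaperone of the ER lumen that acts as nucleotide exchange factor of HSPA5. HSPA8 (Hsc70) is the constitutive Hsp70 of the cytosol, DNAJB1 a J-domain protein that stimulates ATP hydrolysis by Hsp70, and HSPH1 (Hsp105) an exchange factor of the same machine. HSP90AA1 encodes the stress-inducible cytosolic Hsp90, which matures kinases and hormone receptors. Cytosolic members are classic targets of heat shock factor 1, which binds heat shock elements, and ER members are classic targets of ATF6 and XBP1, which bind ER stress elements.

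The promoters are shown because ER stress elements matched only in the ER pair, and heat shock elements only in some of the cytosolic members. All 6 symbols matched the RefSeq promoter table (GRCh38.p14), with 9 start sites among them: 2 for HSP90AA1, 3 for DNAJB1 and 1 for each other gene. Each sequence covers 250 bases before to 50 bases after a start, 5′ to 3′ on the gene's strand, with element matches in capitals. The elements searched, on both strands, were a heat shock element of 2 units (TTCNNGAA or GAANNTTC), one of 3 units (TTCNNGAANNTTC or GAANNTTCNNGAA, which contains matches to the shorter form), the ER stress element (ERSE, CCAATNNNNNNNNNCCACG) and ERSE-II (ATTGGNCCACG). The promoters printed are those of HSPA5 (chr9:125241294-125241593), HYOU1 (chr11:119057156-119057455), HSPA8 (chr11:123062087-123062386), the inner start of HSP90AA1 (chr14:102086995-102087294) and 1 start of DNAJB1 (chr19:14518348-14518647).
HSPA5: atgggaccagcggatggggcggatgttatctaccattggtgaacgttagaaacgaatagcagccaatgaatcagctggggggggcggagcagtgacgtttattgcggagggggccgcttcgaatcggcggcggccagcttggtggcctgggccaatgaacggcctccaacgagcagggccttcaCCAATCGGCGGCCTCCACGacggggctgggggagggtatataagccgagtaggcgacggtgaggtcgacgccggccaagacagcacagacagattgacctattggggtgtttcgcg
HYOU1: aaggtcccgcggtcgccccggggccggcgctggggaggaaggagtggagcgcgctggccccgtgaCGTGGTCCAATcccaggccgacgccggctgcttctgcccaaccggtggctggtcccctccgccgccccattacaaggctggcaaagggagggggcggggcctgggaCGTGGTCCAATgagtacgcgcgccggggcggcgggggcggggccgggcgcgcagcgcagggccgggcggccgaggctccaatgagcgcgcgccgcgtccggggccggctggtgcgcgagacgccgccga
HSPA8: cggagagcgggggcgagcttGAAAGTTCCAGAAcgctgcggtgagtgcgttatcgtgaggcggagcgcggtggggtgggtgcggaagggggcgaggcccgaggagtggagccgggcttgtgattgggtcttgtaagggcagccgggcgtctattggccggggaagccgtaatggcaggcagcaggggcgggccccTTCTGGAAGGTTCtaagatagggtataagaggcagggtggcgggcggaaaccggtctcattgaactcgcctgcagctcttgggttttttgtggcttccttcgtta
HSP90AA1: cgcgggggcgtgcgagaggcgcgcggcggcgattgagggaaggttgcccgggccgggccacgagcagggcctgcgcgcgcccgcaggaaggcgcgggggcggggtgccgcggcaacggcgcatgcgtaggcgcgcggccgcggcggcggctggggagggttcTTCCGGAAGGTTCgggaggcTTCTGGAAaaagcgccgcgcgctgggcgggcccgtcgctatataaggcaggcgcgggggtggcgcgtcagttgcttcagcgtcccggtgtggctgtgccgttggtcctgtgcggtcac
DNAJB1: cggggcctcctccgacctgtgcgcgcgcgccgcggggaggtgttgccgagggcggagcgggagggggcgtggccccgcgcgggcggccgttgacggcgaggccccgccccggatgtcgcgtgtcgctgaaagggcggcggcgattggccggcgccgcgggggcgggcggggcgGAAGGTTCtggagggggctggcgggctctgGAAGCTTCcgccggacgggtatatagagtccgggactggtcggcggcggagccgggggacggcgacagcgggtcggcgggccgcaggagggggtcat
HSPA5 held 1 ERSE, which 0.0769% of the 35116 promoters in the table held, and HYOU1 held 2 copies of ERSE-II on the reverse strand, an element present in 0.0541%. Neither held a heat shock element. HSPA8 held 2 matches to the 3-unit heat shock element and the inner HSP90AA1 start held 1, against 0.49% of all promoters with any. The DNAJB1 start shown held 2 matches to the 2-unit form, which 13.5% of all promoters had, and another DNAJB1 start held 1. The HSPH1 promoter, the outer HSP90AA1 start and the remaining DNAJB1 start held no match in this window. A match is a description of letters, not a measured binding site.

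Each gene was read by its main peak, the one with the most reads over the 27 libraries. For HSPA5 this was chr9:127998472-127999437, with 87.1% of the reads in the gene's window over all libraries. The main peak of HYOU1 was chr11:118914892-118915377 (76.7%), that of HSPA8 chr11:122928110-122928705 (63.7%), that of DNAJB1 chr19:14625521-14626154 (74.1%) and that of HSPH1 chr13:31710542-31711712 (60.0%). In these 5 genes the main peak was also the 3′-most of the peaks in all 27 lists. HSP90AA1 differed: its main peak, chr14:102551016-102551441 (57.3%), lay 4087 bases upstream of its 3′-most peak, chr14:102546929-102548161, which held 20%. In these shares a peak left out of a list counts as no reads.

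**Figure D1:**
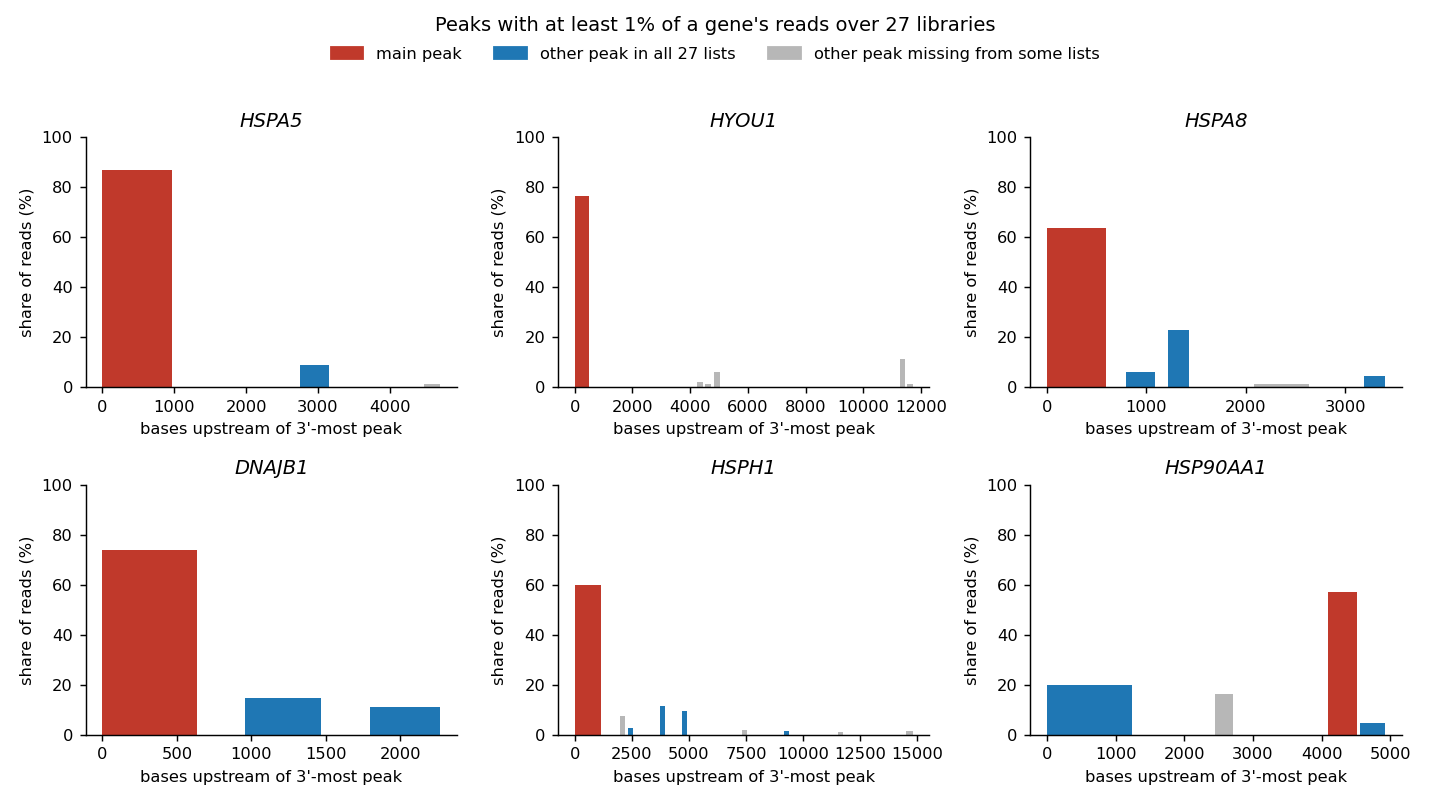
Share of a gene's reads (y axis, percent, summed over 27 libraries) held by each peak with at least 1%, against its distance in bases upstream of the 3′-most peak common to all lists (x axis), with narrow peaks widened for visibility. The tallest bar stands at the 3′-most peak in 5 genes and 4087 bases upstream of it in HSP90AA1.

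The lists were of 2 kinds, which limited what could be compared. In all, 16 lists, called long, held 73.1% to 79.4% of their own peak numbers, and 11, called short, held 30.6% to 42.3%. The short lists were those of H358 oxaliplatin, A549 cytosol and replicate 3 of both polysome groups. A peak missing from a short list may have been left out rather than unread, so each fit used the peaks listed in all of its libraries. Library totals ran from 3024814 to 11997535 reads, and the smallest count at any member's main peak was 23 reads, for HYOU1 in A549R DMSO replicate 3. Mitochondrial reads made up 7.29% to 7.68% of H358 DMSO libraries, 10.1% to 12.8% of oxaliplatin and 14.4% to 16.2% of cisplatin libraries. In polysomes they made up 0.959% to 1.21% of the libraries with long lists and 4.56% and 4.67% of the others. The part of these differences in the results below was not tested.

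Levels are given as CPM, reads per 1000000 reads in the 10283 peaks common to all lists, scaled by TMM over the 27 libraries. Log2 changes come from the scaling of each fit and can differ slightly from ratios of levels. Adjusted p-values are from edgeR's quasi-likelihood test with Benjamini-Hochberg adjustment over all peaks of a fit, and a change was called at an adjusted p under 0.05. In bulk RNA, fewer transcripts per cell and fewer cells holding them cannot be told apart. Apart from rises after cisplatin against DMSO, the share of all peaks with groups that do not overlap was not counted.

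**Figure D2:**
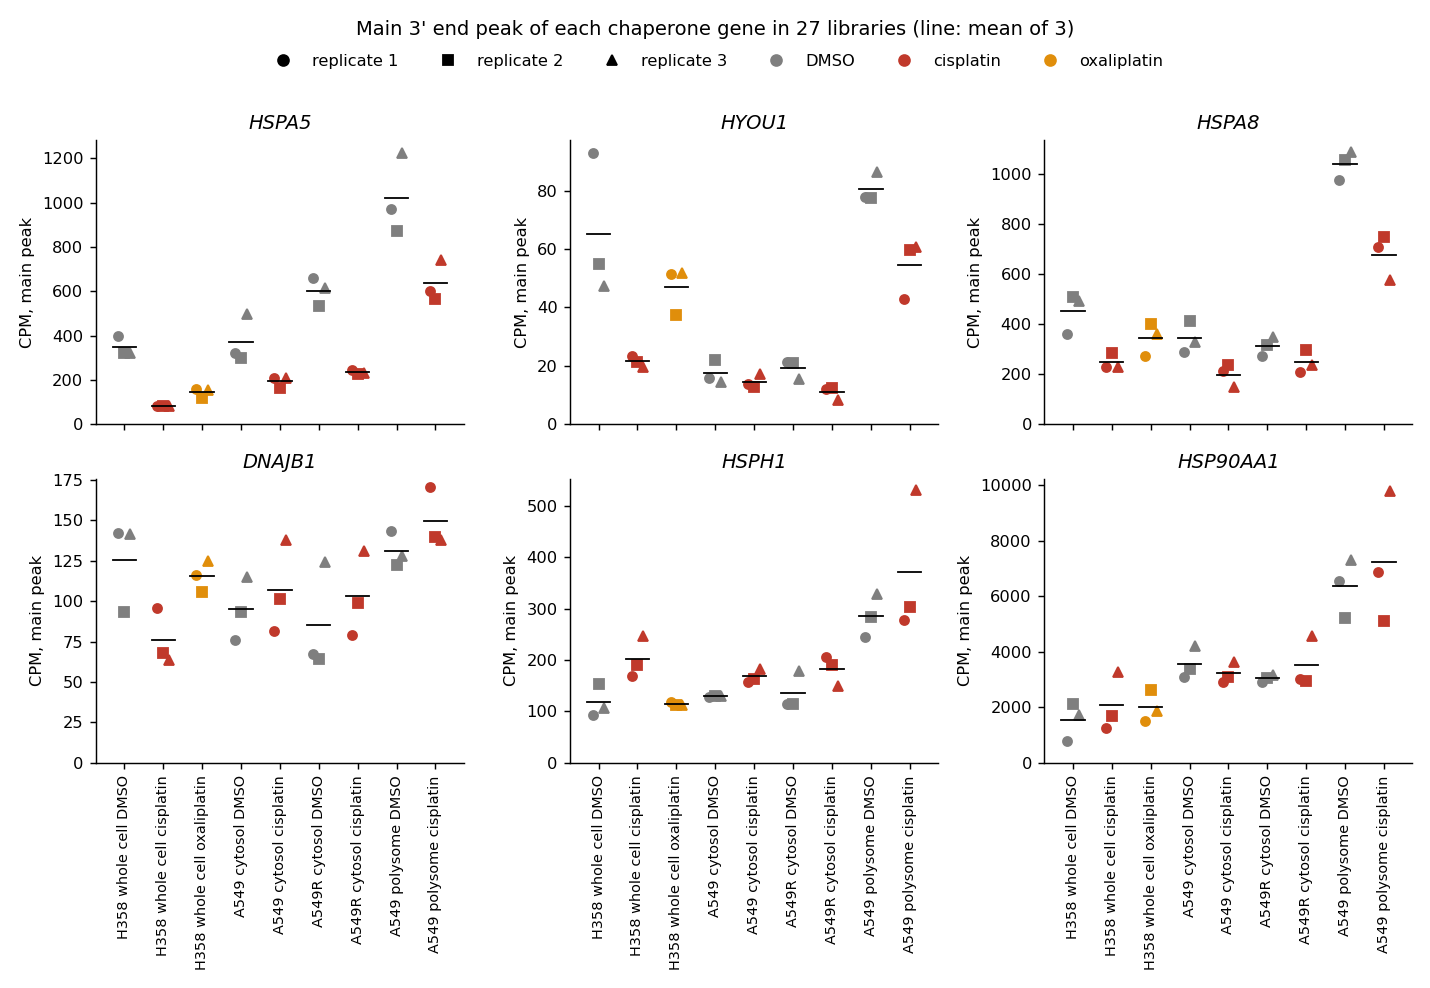
Level of each gene's main peak (y axis, CPM, from 0) in the 3 libraries of each of 9 groups (x axis), with symbols for replicates, colours for treatments and a line at the mean. The 3 H358 cisplatin libraries sit between 81.0 and 84.4 for HSPA5, below all other groups, and polysome groups are highest for HSPA8.

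In H358 cells, cisplatin lowered both ER chaperones and the cytosolic HSPA8 and DNAJB1, raised HSPH1, and gave no call for HSP90AA1. Of 6 main peaks 4 were lower, where 14.4% of the 14358 peaks tested were lower, and 1 was higher, where 11.8% were. In either direction, 5 of 6 were called against 26.2% of all peaks.

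HSPA5 stood at 399.5, 323.5 and 320.6 CPM in H358 DMSO and at 84.4, 81.0 and 84.1 in cisplatin. All 3 treated libraries lay far below all 3 controls. The log2 change was -2.19 ± 0.23 (SE, n = 3 per group), a 4.55-fold fall, with an adjusted p of 4e-07 by edgeR. HYOU1 moved the same way: its DMSO libraries read 93, 55.0 and 47.2 and its cisplatin libraries 23.5, 21.5 and 19.8. The groups did not overlap, although DMSO replicate 1 was well above the other controls. Its log2 change was -1.71 ± 0.30, a 3.28-fold fall (adjusted p = 0.000204, edgeR).

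HSPA8 fell from 363.0, 510.8 and 492.2 to 229.4, 286.5 and 230.1 CPM, again with no overlap. Its log2 change of -0.99 ± 0.22 was a 1.99-fold fall (adjusted p = 0.0022, edgeR). DNAJB1 read 142.2, 93.3 and 141.4 in DMSO and 95.8, 67.8 and 63.7 in cisplatin, so that 1 treated library lay above the lowest control. The log2 change was -0.83 ± 0.24 (adjusted p = 0.0144), and without DMSO replicate 1, cisplatin replicate 2 or cisplatin replicate 3 the edgeR adjusted p was 0.0655, 0.0843 or 0.0675. HSPH1 read 93.8, 154.1 and 106.4 in DMSO and 168.8, 189.6 and 246.8 in cisplatin, with no overlap. Of 20154 peaks listed in all these libraries with at least 20 reads on average in DMSO, 34.4% were higher in that way. The HSPH1 log2 change was 0.65 ± 0.23 (adjusted p = 0.0445, edgeR).

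The rise of HSPH1 rested on the scaling and the falls did not. Among the 6 long H358 lists alone, with 27634 peaks, the median of the peaks tested above lay at -0.51 in log2, against -0.04 with all 9 H358 lists, and edgeR gave HSPH1 0.16 ± 0.27 (adjusted p = 0.655). In that fit HSPA5 was at -2.66 ± 0.27, HYOU1 at -2.19 ± 0.33, HSPA8 at -1.48 ± 0.25 and DNAJB1 at -1.29 ± 0.29, all called by edgeR. Of all 27634 peaks in that fit, 5006 were called lower and 5043 higher. The HSPH1 call was also lost without DMSO replicate 1 or 3 or cisplatin replicate 2 or 3 (edgeR adjusted p from 0.0618 to 0.193). Of all calls in the comparison, 45.1% were higher, against 14.1% when libraries were scaled by their totals.

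HSP90AA1 varied widely between H358 libraries, and its change was not called. Its main peak read 784.9, 2103.6 and 1733.9 in DMSO and 1250.0, 1703.6 and 3258.5 in cisplatin, with wide overlap. The log2 change was 0.31 ± 0.33, with a 95% interval from -0.38 to 0.99 (adjusted p = 0.522, edgeR). The 3′-most HSP90AA1 peak gave 0.70 ± 0.32 (adjusted p = 0.115, edgeR).

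Oxaliplatin, a platinum compound in which a diaminocyclohexane and an oxalate take the places of the ammine and chloride ligands of cisplatin, lowered 1 of the 6 main peaks in H358, where 4.05% of all peaks were lower. HSPA5 read 159.3, 118.5 and 154.3 CPM after oxaliplatin, below all 3 DMSO libraries and above all 3 cisplatin libraries. Its log2 change against DMSO was -1.32 ± 0.22, a 2.50-fold fall (adjusted p = 0.000542, edgeR). HYOU1 (51.5, 37.4 and 51.7) overlapped its controls, at -0.53 ± 0.27 (adjusted p = 0.27). HSPA8 (272.0, 399.9 and 360.5) overlapped too, at -0.45 ± 0.22 (adjusted p = 0.235). DNAJB1 was at -0.17 ± 0.24, HSPH1 at -0.10 ± 0.23 and HSP90AA1 at 0.34 ± 0.33, none of them called.

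Set directly against oxaliplatin at the same dose, with p-values adjusted over all peaks for this 1 pair of compounds, cisplatin left HSPA5 lower by 0.86 ± 0.22 in log2, a 1.82-fold difference (adjusted p = 0.00808, edgeR). HYOU1 was 2.27-fold lower after cisplatin (log2 -1.18 ± 0.30, adjusted p = 0.00719), and its 3 cisplatin libraries lay below all oxaliplatin libraries. These 2 were the main peaks called lower, where 9.44% of all peaks were. HSPH1 was the 1 called higher, at 0.74 ± 0.23 (adjusted p = 0.0292), where 9.74% of all peaks were, and this value was -0.19 when libraries were scaled by their totals. The edgeR call for HSPH1 was lost without cisplatin replicate 3 or without any 1 of the oxaliplatin libraries (adjusted p from 0.0536 to 0.135). HSPA8 (-0.54, 95% interval -0.99 to -0.08) and DNAJB1 (-0.66, -1.17 to -0.16) missed the threshold, with edgeR adjusted p of 0.0899 and 0.0587. HSP90AA1 differed by -0.03 with an interval from -0.71 to 0.66, which does not show that the compounds act alike on it. Both comparisons with oxaliplatin also set short lists against long ones, and the 3 H358 comparisons share libraries.

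**Figure D3:**
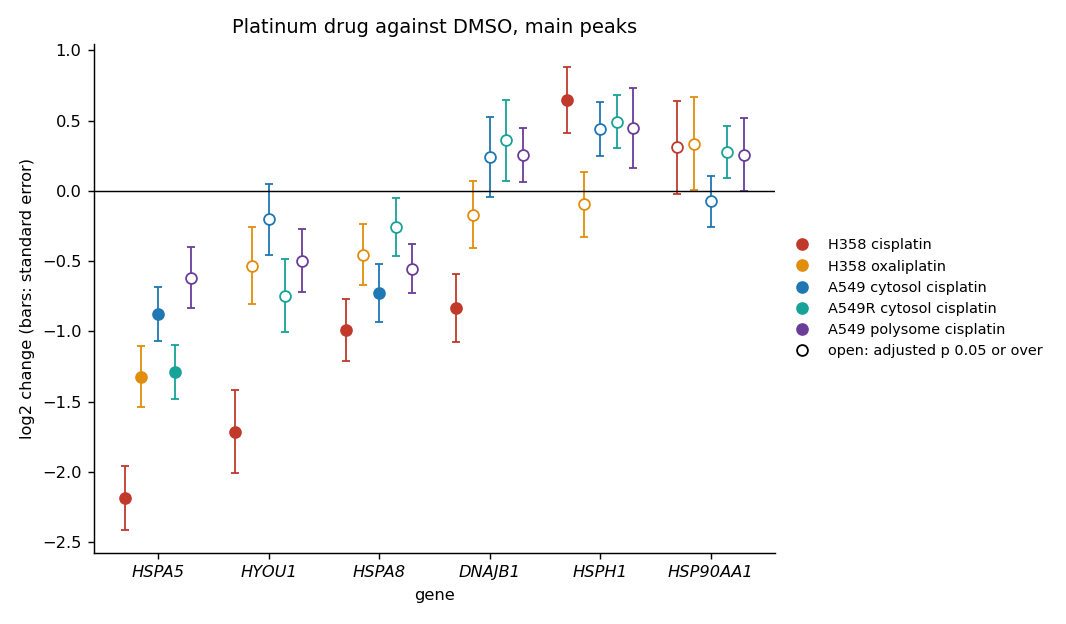
Log2 change of each main peak against DMSO (y axis) for 6 genes (x axis) in 5 drug comparisons, with bars for the standard error, filled points for an adjusted p under 0.05 and open points for the others. HSPA5 is below 0 in all 5, from -2.19 in H358 cisplatin to -0.62 in A549 polysomes, and HSP90AA1 has only open points.

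In the A549 cytosol, cisplatin lowered HSPA5 and HSPA8, 2 of 6 main peaks where 3.94% of all 16439 peaks were lower. HSPA5 read 323.5, 297.9 and 496.3 in DMSO and 208.1, 164.3 and 209.8 in cisplatin, with no overlap. The log2 change was -0.88 ± 0.19, a 1.84-fold fall (adjusted p = 0.0147, edgeR), and the adjusted p was 0.082 without cisplatin replicate 2. HSPA8 read 289.9, 412.2 and 331.4 in DMSO and 212.2, 237.5 and 148.6 in cisplatin. Its fall of 1.65-fold (log2 -0.72 ± 0.20) had an adjusted p of 0.0468, which rose to between 0.0502 and 0.196 when any 1 of the 6 libraries was left out and to 0.0689 in a fit of the short lists alone (edgeR). HYOU1 was at -0.20 ± 0.25, DNAJB1 at 0.24 ± 0.29, HSPH1 at 0.44 ± 0.19 and HSP90AA1 at -0.08 ± 0.18, with edgeR adjusted p from 0.173 to 0.845. The HSPH1 libraries did not overlap, at 127.5, 130.9 and 130 in DMSO and 157.9, 162.9 and 183.4 in cisplatin. Of 15991 peaks listed in all 6 libraries with at least 20 reads on average in DMSO, 11.7% were higher in that way.

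In the A549R cytosol, HSPA5 was the 1 main peak lowered by cisplatin, where 2.1% of all peaks were lower. It read 658.5, 533.2 and 614.4 in DMSO and 244.0, 228.7 and 231.0 in cisplatin. The treated libraries lay within a narrow range far below the controls, and the log2 change was -1.29 ± 0.19, a 2.44-fold fall (adjusted p = 0.0027, edgeR). HYOU1 read 21.3, 21.1 and 15.5 in DMSO and 12.3, 12.6 and 8.4 in cisplatin, with no overlap, but on 23 to 91 reads per library. Its change of -0.75 ± 0.26 was not called (adjusted p = 0.112, edgeR). HSPA8 was at -0.26 ± 0.20, DNAJB1 at 0.36 ± 0.29, HSPH1 at 0.49 ± 0.19 and HSP90AA1 at 0.27 ± 0.18, with edgeR adjusted p from 0.15 to 0.503. Without DMSO replicate 3, the shallowest library, HSPH1 passed at 0.71 ± 0.17 (adjusted p = 0.033, edgeR).

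At no member was the cisplatin response of A549R told apart from that of A549. No peak of the 16439 was called for that difference (0% by edgeR and by DESeq2), and 307 had an unadjusted p under 0.05 by edgeR. With all peaks averaging 5 reads or more edgeR made 7 such calls and all peaks with no minimum gave 1060, none of them the main peak of a member. For HSPA5 the difference was -0.41 in log2 with a 95% interval from -0.99 to 0.16. In DMSO, HSPA5 was higher in all 3 A549R libraries than in any A549 library, by 0.68 ± 0.19 in log2 or 1.60-fold (adjusted p = 0.0807, edgeR). With the replicate number as a block, the HSPA5 value was 0.70 with an edgeR adjusted p of 0.0204, in a fit that called 916 of the 16439 peaks. Deviations of same-numbered libraries correlated only weakly for this pair of groups (0.198, 0.114 and 0.208). The block covered all cytosol libraries, also A549R against A549 in cisplatin, where replicate 3 correlated at -0.00276. By edgeR without the block none of the 6 was called between the lines, either in DMSO, where 2.1% of all peaks were called, or in cisplatin, where 1.64% were. HSPA5 in DMSO was called by DESeq2 (adjusted p = 0.0448) and by edgeR without A549 DMSO replicate 3 (adjusted p = 0.0106). With libraries scaled by their totals, 4 of the 6 were called lower in A549R in each treatment, HSPA5 not among them. Under that scaling 6569 of the 16439 peaks were called in DMSO and 5954 in cisplatin. Of those calls, 1.70% and 1.75% were higher. List kind separates A549R from A549 as well, so the line and the kind of list cannot be told apart.

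In A549 polysomes no member was called between cisplatin and DMSO in the unpaired main fit, where 0.704% of 21585 peaks were called. HSPA5 nevertheless read lower in all 3 cisplatin libraries, at 599.3, 567.3 and 743.0 against 969.4, 870.2 and 1223.2. Its log2 difference was -0.62 ± 0.22 (adjusted p = 0.217, edgeR). HSPA8 read 711.1, 749.5 and 576.2 against 977.8, 1056.6 and 1089.0, at -0.55 ± 0.17 (adjusted p = 0.18). With the replicate number as a block both passed by edgeR, HSPA5 at -0.61 (adjusted p = 0.0066) and HSPA8 at -0.56 (adjusted p = 0.025). In that fit 2031 of the 21585 peaks were called, 1082 of them lower. Deviations of same-numbered libraries correlated at 0.42, 0.433 and 0.51 for this pair of groups. HYOU1 libraries (43.0, 59.5 and 60.7) lay below their controls (77.9, 77.4 and 86.3) without a call, at -0.50 ± 0.22. Polysome replicate 3 has short lists in both groups, and without those 2 libraries HSPA5 was at -0.48 ± 0.20 and HSPA8 at -0.31 ± 0.22 over 2 libraries a group.

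In A549, 5 of the 6 genes were higher in heavy polysomes than in the cytosol, in DMSO and again in cisplatin. With libraries scaled by their totals the count was 2 in DMSO and 3 in cisplatin, and with all peaks of mean count at least 5 it was 3 in DMSO. In DMSO 19.9% of all 17308 peaks were higher in polysomes, and in cisplatin 21% were. HYOU1 led, at 77.9, 77.4 and 86.3 CPM in polysomes and 15.9, 21.9 and 14.5 in the cytosol, a log2 difference of 2.08 ± 0.23 or 4.23-fold (adjusted p = 2.59e-05, edgeR). HSPA8 was higher by 1.47 ± 0.19 (2.78-fold), HSPA5 by 1.34 ± 0.22 (2.53-fold) and HSPH1 by 1.02 ± 0.23 (2.03-fold). HSP90AA1 was higher by 0.72 ± 0.24 (1.65-fold, adjusted p = 0.0283), and this edgeR call was lost when polysome replicate 1 or 3 or cytosol replicate 1 or 2 was left out (adjusted p from 0.0696 to 0.1). DNAJB1, the J-domain partner, differed by 0.34 with a 95% interval from -0.14 to 0.82 (adjusted p = 0.239, edgeR).

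In cisplatin the same 5 genes were called, HYOU1 at 1.73 ± 0.23, HSPA8 at 1.59 ± 0.19, HSPA5 at 1.55 ± 0.23, HSP90AA1 at 1.00 ± 0.24 and HSPH1 at 0.98 ± 0.23. DNAJB1 was again not called, at 0.30 ± 0.22. No peak of this fit was called for a difference in cisplatin response between fractions (0% by edgeR and by DESeq2, with 208 unadjusted edgeR p-values under 0.05). Short lists alone gave 3 such calls and all peaks with no count minimum gave 196 by edgeR, none of them the main peak of a member. The 95% interval of that difference ran from -0.46 to 0.88 for HSPA5 and from -1.03 to 0.32 for HYOU1. The polysome libraries with long lists face cytosol libraries with short ones, so fraction and list kind differ together for 4 of the 6. The files of the fractions come from different runs as well, so fraction and run cannot be told apart. Among short lists alone, with 1 polysome library per treatment assumed to vary like the cytosol ones, the same 5 were called in both treatments, with HYOU1 at 2.29 ± 0.29 and HSPA5 at 1.70 ± 0.27 in DMSO.

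**Figure D4:**
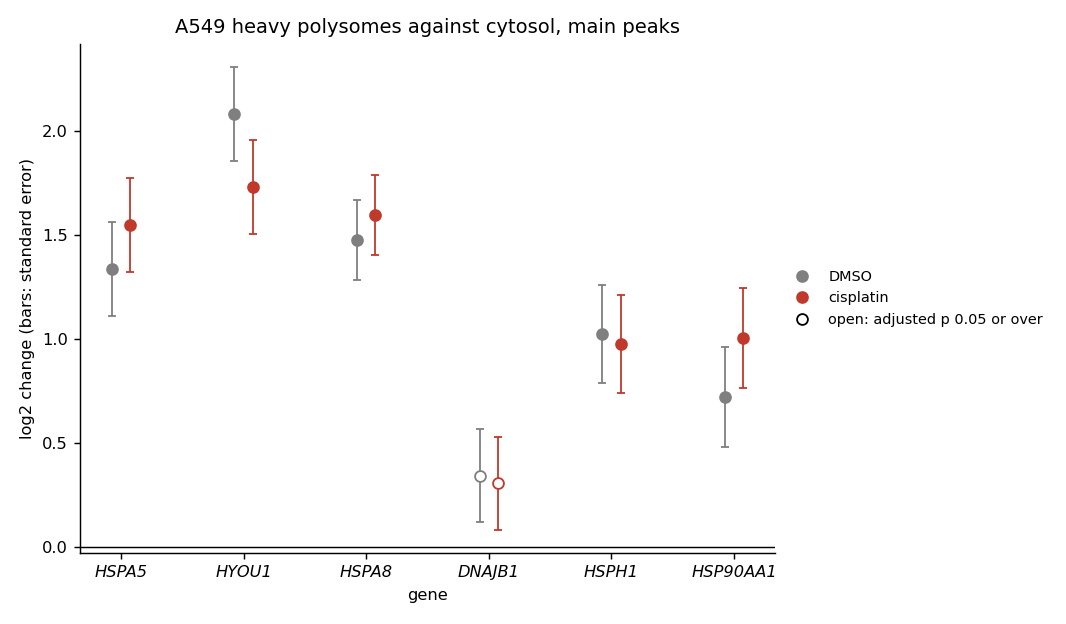
Log2 difference of each main peak between A549 heavy polysomes and cytosol (y axis) for 6 genes (x axis), in DMSO (grey) and cisplatin (red), with bars for the standard error and open points where the adjusted p was 0.05 or over. The other 5 genes lie above 0 with filled points in both treatments, HYOU1 highest at 2.08 and 1.73, and DNAJB1 has open points.

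Across the 9 groups, HSPA5 had the widest range of group levels (3.60 in log2) and the fewest overlaps between neighbours in its order. Its group means ran from 1021 ± 182 (SD, n = 3) in polysome DMSO and 637 ± 93.6 in polysome cisplatin to 144 ± 22.3 in H358 oxaliplatin and 83.2 ± 1.91 in H358 cisplatin. Polysome cisplatin overlapped A549R DMSO (602 ± 63.6), and A549 DMSO (373 ± 108) overlapped H358 DMSO (348 ± 44.7), while the other 6 neighbouring pairs did not overlap. HYOU1 had its highest means in polysome DMSO (80.5 ± 5.02) and H358 DMSO (65.1 ± 24.5) and its lowest in A549R cisplatin (11.1 ± 2.31). DNAJB1 spanned the narrowest range, from 149 ± 18.3 in polysome cisplatin to 75.8 ± 17.5 in H358 cisplatin, and every neighbouring pair in its order overlapped. HSPH1 also overlapped at every step, from 371 ± 139 in polysome cisplatin to 115 ± 3.64 in H358 oxaliplatin. HSPA8 was set apart in polysome DMSO (1041 ± 57.2) and polysome cisplatin (679 ± 91.0), with all neighbouring pairs among the other 7 groups overlapping. For HSP90AA1 the 2 polysome groups (7258 ± 2370 and 6367 ± 1055) overlapped each other and stood above the rest, whose neighbours all overlapped.

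A second HSPA5 peak in all lists, chr9:128001220-128001619, lies 2748 bases upstream of the main one, and its reads are counted apart from it. It read 56.5, 50.5 and 39.4 CPM in H358 DMSO and 7.9, 10.4 and 6.2 in cisplatin, on 10 to 25 reads per treated library. Its fall was -2.71 ± 0.37 (adjusted p = 1.51e-05, edgeR). It also fell in H358 oxaliplatin (-1.58 ± 0.32, adjusted p = 0.00546), A549 cytosol (-0.81 ± 0.23, adjusted p = 0.0469) and A549R cytosol (-1.53 ± 0.23, adjusted p = 0.00294). In those 4 comparisons 14.4%, 4.05%, 3.94% and 2.1% of all peaks were lower. In polysomes the second HSPA5 peak was at -0.59 ± 0.21 without a call (adjusted p = 0.22, edgeR). The share of HSPA5 reads at this peak did not separate cisplatin from DMSO in any of the 4 settings. Both HSPA5 peaks common to all 27 lists had negative log2 values in each of the 5 drug comparisons.

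Internal ends were compared as shares of a gene's reads in peaks listed in all libraries of both groups, with 137 exact two-sided permutation tests on peaks holding at least 2% of the reads. With 3 libraries against 3 the smallest p is 0.1, so no call was possible, and 0 of the 137 were called (0%, smallest adjusted p 0.623). The middle peak of DNAJB1, chr19:14626477-14626985, was singled out after its values were seen, and they are given as a description. It lies 956 bases upstream of the main peak. Its share was larger in every cisplatin library than in any DMSO library of the same setting, in all 4 settings, and it was the only one of the 11 internal peaks measured in all 4 with that pattern. Internal peaks of genes outside the 6 were not analysed here. In H358 the shares were 20%, 22.4% and 23.4% after cisplatin and 12.8%, 17.6% and 11.3% in DMSO. In the A549 cytosol they were 13.4%, 16.4% and 13.4% against 11.9%, 11.9% and 12.7%, and in the A549R cytosol 16.2%, 17.4% and 14.9% against 14.2%, 6.54% and 10.5%. In polysomes they were 14.4%, 16.7% and 18.6% against 8.79%, 11.7% and 11%. Some of these shares rest on few reads: the peak held 89, 33 and 37 in H358 cisplatin and 55, 20 and 25 in A549R DMSO. Each of the 4 contrasts had the exact permutation p of 0.1, the smallest possible, and an adjusted p of 0.623. After oxaliplatin the shares (14.8%, 17.4% and 16.3%) overlapped those in DMSO.

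**Figure D5:**
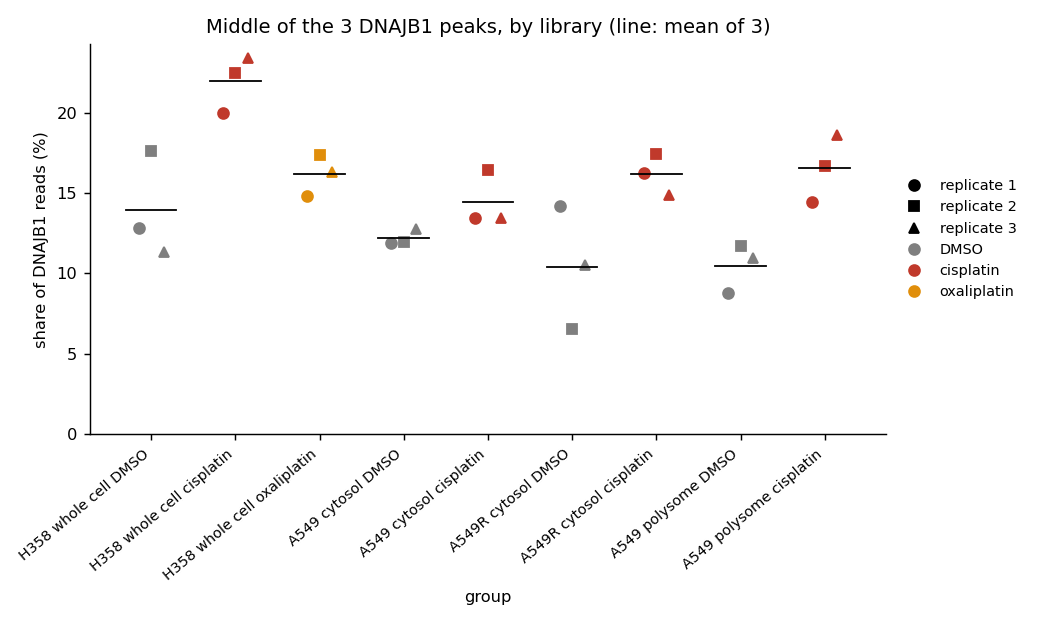
Share of DNAJB1 reads in the middle of its 3 peaks common to all lists (y axis, percent) in the 3 libraries of each group (x axis), with a line at the mean. Cisplatin groups have means from 14.4% to 22% and DMSO groups from 10.4% to 13.9%, and the libraries of each matching pair do not overlap.

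As a level, the middle DNAJB1 peak did not fall with the main one in H358, at -0.01 ± 0.27 in log2 (adjusted p = 0.987, edgeR) beside -0.83 for the main peak. In the A549R cytosol it was at 1.1 ± 0.36 (adjusted p = 0.0932) and in polysomes at 0.99 ± 0.23 (adjusted p = 0.0896), without a call in either. The upstream-most of the 3, chr19:14627320-14627789, gained no share without overlap in any of the 4 settings.

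HSP90AA1 reads were spread over its ends in a way that depends on the lists. A peak at chr14:102549370-102549644, 2441 bases upstream of the 3′-most one, carried 109993 reads and stood in all 16 long lists and in no short list. Among long lists it averaged 978 ± 435 CPM in H358 DMSO and 1310 ± 601 in H358 cisplatin, with overlap, and 1632 ± 226 and 1737 ± 367 in A549R DMSO and cisplatin, again with overlap. At the 3′-most HSP90AA1 peak, A549R DMSO replicate 3 read 2512.6, against 936.6 and 960.2 in the other 2 libraries of its group. At its main peak that library (3180.8) was close to the others (2923.1 and 3040.2). In H358 the 3′-most HSP90AA1 peak held 21.9%, 26.1% and 23.4% of the gene's reads after cisplatin and 19.4%, 17.2% and 21.2% in DMSO, without overlap (exact permutation p = 0.1, adjusted 0.623). Between fractions, a minor peak at chr14:102549868-102550053 was lower in polysomes, at -0.95 ± 0.28 in DMSO (adjusted p = 0.0153, edgeR) and -0.90 ± 0.28 in cisplatin (adjusted p = 0.019), where the main peak was higher. Of all peaks, 19.8% were lower in polysomes in DMSO and 22.3% in cisplatin.

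HSPA8 ends moved with its main peak in H358: chr11:122929330-122929541, with 23% of the window's reads, fell by 1.16 ± 0.23 in log2 (adjusted p = 0.000935, edgeR). In the A549R cytosol, where the HSPA8 main peak was not called, this second peak fell by 0.79 ± 0.20 (adjusted p = 0.0406, edgeR). HSPH1 had a comparable case in that line: its peak chr13:31714314-31714454 rose by 0.98 ± 0.24 (adjusted p = 0.0328, edgeR) beside an uncalled main peak at 0.49. In that fit 5 peaks of HSPA8 and 5 of HSPH1 were tested. Of all 16439 peaks, 2.1% were lower and 2.45% higher in the A549R comparison, and 14.4% of the H358 peaks were lower in theirs. Whether the 2 ends of either gene differ from each other in response was not tested.

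For each member, the peak outside the 6 windows with the most similar profile over the 9 group means was found among 10262 peaks by Pearson's r on log2 levels, as a description in which all points share the same libraries. For HSPA5 it was chr22:31721785-31722172 on the minus strand (r = 0.98), for HYOU1 chr10:127356024-127356226 on the minus strand (r = 0.983) and for HSPA8 chr14:69340832-69341740 on the minus strand (r = 0.984). For DNAJB1 it was chr19:15225782-15226208 on the minus strand (r = 0.959), for HSPH1 chr17:27028449-27029263 on the plus strand (r = 0.987) and for HSP90AA1 chrX:19377598-19378035 on the plus strand (r = 0.997).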

How the data were processed

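RNA 3′ ends were counted in 27 libraries, in 9 groups of 3, with groups and doses taken from the sample labels. Polyadenylated RNA was broken up, primed with anchored oligo-dT and amplified, per the labels' protocols. The authors deposited 1 list of peaks per library with raw read counts, per the file columns, and the smallest count in any list was 5. Bowtie2 2.2.5, bedtools 2.17.0 and SAMtools 1.1 are named, with no role, in the submitters' processing notes. Which program called the peaks, and by what filters, is not given in the sources. Oligo-dT can prime inside A-rich RNA, and PCR copies were not separated from molecules, so counts are not independent molecules and a peak need not be a transcript end.

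Same-strand peaks sharing 1 base or more were joined across libraries. Joined peaks present in each list of a fit were tested with edgeR 4.0.16 (R 4.3.3; TMM scaling, quasi-likelihood test, Benjamini-Hochberg adjustment over all peaks of the fit): 14358 for H358, 16439 for both cytosols, 21585 for polysomes alone and 17308 for A549 cytosol with polysomes. Each fit took all groups of its setting, which share 1 estimate of spread, and the fitting code was tested on simulated counts. The named genes are the 6 members, each read by its main peak, and 1 similar peak per member. The members, windows and lists were chosen with earlier results of these data known. Alternatives were RLE scaling, library totals, DESeq2 1.42.0, all peaks with absent peaks as 0, the sum over a window, the replicate number as a block and leaving out each library. After seeing the data, the 3′-most peak and fits of lists of 1 kind were added. No replicate pair was identical, and counts within groups differed by more than sampling noise (chi-square per degree of freedom 4.27 to 44.3).

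No main fit was paired, and the replicate number entered only as the block among the alternatives. Same-numbered libraries were described as paired where each pair's deviations from the group means correlated over 0.1. This held for H358 oxaliplatin against DMSO, cisplatin against DMSO in A549 cytosol, A549R cytosol and polysomes (0.142 to 0.51 over these 3), A549R against A549 in DMSO, and polysomes against cytosol. The labels give no source for the pairing. Genes of the same pathways outside the 6 were not analysed here.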

Additional observations from a re-analysis of the deposited data

Results flagged for a closer look

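Narrow peaks on the strand opposite to the genes, which no comparison above used, were higher in every H358 cisplatin library than in any H358 DMSO library within 3 of the windows. These 3 were all the opposite-strand peaks listed in the 6 libraries with at least 20 reads on average in DMSO, and 34.4% of all 20154 peaks under the same rule were higher in that way. They stood in long lists and the reads were counted on the plus strand. In the HSPA8 window, chr11:122928924-122928969 averaged 68.0 ± 3.47 CPM (SD, n = 3) after cisplatin and 32.2 ± 8.94 in DMSO, a ratio of 2.11, where the main HSPA8 peak fell. In the HSPA5 window, chr9:127998324-127998382 averaged 45.5 ± 6.35 and 19.2 ± 8.27, a ratio of 2.37. In the HSP90AA1 window, chr14:102594942-102594996 averaged 15.9 ± 1.78 and 10.9 ± 2.10, a ratio of 1.47. In A549R cytosol the corresponding ratios were 1.20, 1.26 and 0.764, with overlapping libraries. None of these differences was tested, and library totals lower the median H358 peak by 0.47 in log2, which would lower the H358 ratios.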

How the results depend on the processing

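Of 188 recomputed counts of called members, 160 stayed within 1.5 times the main count. Of 1122 recomputed values of single members, 1055 kept their call or lack of one, and those called kept their direction. Values uncalled in both fits count among the 1055 even where their sign changed. For 5 of the genes the 3′-most peak is the main peak, so that setting repeats their main values. For oxaliplatin against DMSO the count of 1 became 5 with all peaks of mean count at least 5 and 3 with no minimum. Those settings count peaks absent from a list as 0. Over all peaks they called 22482 and 26113 lower and 68 and 246 higher, so these counts are not particular to the members. For cisplatin against oxaliplatin the 3 became 5 with library totals and 5 with the replicate block, although the numbers do not pair there. Calls over all peaks went from 2754 to 8919 and 4221 in those settings. For A549 cytosol cisplatin the 2 became 0 with all peaks of mean at least 5, 1 with no minimum and 1 with short lists alone. For A549R against A549 the 0 in DMSO became 4 with library totals and 1 with each of the replicate block, both all-peak settings and DESeq2, and the 0 in cisplatin became 4 with library totals. In DMSO, calls over all peaks went from 345 to 6569 with library totals, 916 with the block and 667 with DESeq2. The all-peak settings gave 26810 and 42783. In cisplatin they went from 270 to 5954 with library totals. For polysome cisplatin the 0 became 2 with the replicate block, where calls over all peaks went from 152 to 2031. For polysomes against cytosol the 5 in DMSO became 2 with library totals and 3 with all peaks of mean at least 5, and the 5 in cisplatin became 3 with library totals. The replicate block changed no other count by over 1.5 times. Leaving out 1 library gave 3 to 5 for H358 cisplatin, 2 to 4 for cisplatin against oxaliplatin, 0 to 1 for A549 cytosol cisplatin, 1 to 2 for A549R cisplatin, 0 to 1 for A549R against A549 in DMSO and 4 to 5 for polysomes against cytosol in DMSO. Library totals reversed HSPH1 in cisplatin against oxaliplatin (-0.19), HSPH1 in A549R against A549 in DMSO (-0.62) and, in cisplatin, HSP90AA1 (-0.53) and HSPH1 (-0.52). Library totals include peaks that short lists lack, and moved the median of the measured peaks by -0.47 for H358 cisplatin, 0.45 for oxaliplatin against DMSO, -0.92 for cisplatin against oxaliplatin, -0.65 and -0.63 for A549R against A549, -0.34 and -0.20 for polysomes against cytosol and 0.14 for the difference in cisplatin response between fractions. The percentage of calls that were higher went from 23.8 to 90.6 for oxaliplatin against DMSO, 50.8 to 5.03 for cisplatin against oxaliplatin, 52.2 to 1.70 and 57.0 to 1.75 for A549R against A549, 59.9 (of 152 calls) to 22.2 (of 9) for polysome cisplatin, and 50.1 to 17.5 and 48.5 to 30.2 for polysomes against cytosol. HSPA5 fell with a call in all alternatives for cisplatin in H358 and A549R and for oxaliplatin, and in 13 of 15 for A549 cytosol. A minimum share of 5 percent left the internal-end tests with 0 calls of 103. With a smallest p of 0.1 no other outcome was possible, although this count is among the 160. A cause other than the lists each setting admits was not tested. Peaks that fell below listing in 1 library are outside every main test, so losses of whole ends could not be seen.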
